A study of Mus musculus with 12 samples.

Results

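The non-cartilage collagens are the 36 collagen genes, of 44 with a collagen chain symbol and 36186 rows in all, that remain after the 8 genes of cartilage collagen (*Col2a1*, *Col9a1*, *Col9a2*, *Col9a3*, *Col11a1*, *Col11a2*, *Col27a1* and *Col10a1*) are set aside. They were chosen by symbol alone. Their RNA was measured in chondrocytes, the cartilage cells of the growing skeleton, cut by laser capture microdissection (LCM) from the forelimb zeugopod (radius and ulna) of mouse embryos at E15.5 on a mixed 129/CD-1 background. The 12 RNA-Seq libraries form 4 groups of 3. WT resting, WT proliferative and WT hypertrophic are successive compartments of wild-type cartilage, and the GEO labels call the last of these hyperproliferative. The *aadd* group is homozygous for frameshift mutations in the first exons of *Hoxa9*, *Hoxa10*, *Hoxa11*, *Hoxd9*, *Hoxd10* and *Hoxd11*. It is labelled resting, and its undifferentiated chondrocytes were taken as 1 population. According to the methods of the study, the captured cells carried some perichondrium, the connective tissue sheath of the cartilage. The study describes the libraries as independent sets of compartments, but neither it nor the labels say whether a set was taken from a single embryo, so *P* values measure only the spread between these libraries.

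Collagens are secreted proteins made of 3 chains wound around each other. Fibrillar collagens build the cables of bone, tendon and skin. FACIT collagens sit on the surface of such fibrils. Types IV and VIII form sheet-like networks, type IV in every basement membrane, and type VI forms beaded filaments around cells. Multiplexins lie in basement membrane zones, and transmembrane collagens are anchored in the cell surface. Cartilage itself is built on type II fibrils, and type I collagen is the main protein of bone. When cartilage is replaced by bone, hypertrophic cartilage is entered by blood vessels, osteoclasts and osteoblasts.

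Levels are given as NRPKM, reads scaled to transcript length and library size (RPKM) and normalized further between libraries by the authors, which allows genes to be set side by side per length. Differences are log2 fold changes of NRPKM + 0.1 with standard errors (SE) from limma, a linear model that shares variance across genes. Testing was limited to genes that reached 5 NRPKM in 3 or more libraries, which 10936 genes and 22 of the 36 members did. It is called changed under the criteria of the study, an unadjusted *P* up to 0.05 with a fold change of at least 2 between WT compartments or 1.5 between *aadd* and WT resting. Adjusted *P* values are Benjamini-Hochberg values over all 10936 genes. The other 14 members did not pass the filter, and 12 of them were under 5 NRPKM in every library. An estimate of 1890000 to 3240000 reads per library lay behind these values, at which 1 read on 1 kb was worth 0.309 to 0.529 NRPKM.

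The summed NRPKM of 5 prehypertrophic and hypertrophic markers (*Ihh*, *Pth1r*, *Panx3*, *Mmp13* and *Col10a1*) was 29.2 to 42.9 in WT resting, 322 to 494 in WT proliferative, 825 to 1219 in WT hypertrophic and 17.1 to 25.1 in *aadd*, in the order of the compartment labels. The 5 genes did not all follow that order. *Mmp13* was at 3.05, 735 and 661 NRPKM in hypertrophic replicates 1, 2 and 3, against 3.81 to 6.24 in proliferative. *Ihh* was at 56.3, 9.54 and 15.3, against 20.1 to 40.5. Only 1 of the 5 passed the criteria as higher in hypertrophic than in proliferative. Within the hypertrophic group, replicate 1 stood apart from replicates 2 and 3. Together, 9 cartilage matrix genes summed to 1673 NRPKM in replicate 1 and to 274 and 372 in the others, against 1531 to 2047 in WT resting. The 10 endothelial markers summed to 21.7, 304 and 212 NRPKM in hypertrophic replicates 1, 2 and 3 and to 5.0 to 14.2 in the 6 other WT libraries. The 10 osteoclast markers summed to 51.5, 1351 and 995, and 10 macrophage markers to 24.9, 286 and 230. Of the macrophage list, *Cd68* was at 18.2, 174 and 160 NRPKM in these replicates, *Csf1r* at 2.08, 56.7 and 49.6 and *Lyz2* at 0, 37.1 and 10.5. The rest of that list was at 6.10 NRPKM or less in each of them. For members and pathway genes, results that rest on the hypertrophic group are therefore given with replicate 1 shown apart or with the call made without it. The mutated Hox genes do not check the *aadd* label by their absence, since a frameshift need not remove the transcript. Of the 6, *Hoxd9*, *Hoxd10* and *Hoxd11* were above all 9 WT libraries in every *aadd* library, at 22.5 to 29.6, 39.6 to 52.1 and 25.1 to 35.4 NRPKM. *Hoxa9*, *Hoxa10* and *Hoxa11* lay inside the WT range in every *aadd* library, at 15.2 to 19.7, 6.93 to 15.9 and 5.17 to 11.1 NRPKM.

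Promoter sequence is shown for the type I gene *Col1a2* and for the type IV pair *Col4a1* and *Col4a2*, because the type I chains dominated the members' signal and because the type IV pair is transcribed in opposite directions from a common stretch of DNA. Each window runs 5′ to 3′ on its gene's strand from 250 bases before to 50 after the RefSeq start (GRCm38.p6). Capitals mark CCAAT and GGGCGG, the letters of a CCAAT box and a GC box, on either strand (ATTGG and CCGCCC on the other), and the matches in these 3 windows do not overlap each other. The *Col1a2* window is chr6:4505368-4505667 (+), that of *Col4a1* chr8:11312777-11313076 (-) and that of *Col4a2* chr8:11312555-11312854 (+).
Col1a2: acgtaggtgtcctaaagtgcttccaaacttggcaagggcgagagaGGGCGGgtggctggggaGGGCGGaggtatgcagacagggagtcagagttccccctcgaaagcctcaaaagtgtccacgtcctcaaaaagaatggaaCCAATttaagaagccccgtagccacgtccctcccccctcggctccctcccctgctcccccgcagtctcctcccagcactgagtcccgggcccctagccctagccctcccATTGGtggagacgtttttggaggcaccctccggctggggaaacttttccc
Col4a1: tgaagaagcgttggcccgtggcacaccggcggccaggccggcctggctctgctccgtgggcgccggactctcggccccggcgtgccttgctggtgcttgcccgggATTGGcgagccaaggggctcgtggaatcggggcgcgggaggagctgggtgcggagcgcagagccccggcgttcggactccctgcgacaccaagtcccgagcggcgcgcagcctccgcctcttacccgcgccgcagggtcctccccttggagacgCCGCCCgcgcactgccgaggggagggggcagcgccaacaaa
Col4a2: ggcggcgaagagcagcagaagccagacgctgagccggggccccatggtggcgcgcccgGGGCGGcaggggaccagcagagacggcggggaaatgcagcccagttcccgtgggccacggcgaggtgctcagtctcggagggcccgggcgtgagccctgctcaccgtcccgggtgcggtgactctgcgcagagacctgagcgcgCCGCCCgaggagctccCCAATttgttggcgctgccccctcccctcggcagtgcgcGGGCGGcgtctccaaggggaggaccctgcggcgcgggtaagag
The *Col4a1* and *Col4a2* windows share 78 bases, and 1 GC box match lies at the same position in both. Of the 32851 RefSeq windows of this length, 37.4% hold CCAAT and 35.7% hold GGGCGG. RefSeq windows were found for 29 of the 36 members, of which 11 hold CCAAT and 18 hold GGGCGG. A member was counted if any of its windows held a match, while the percentages are of single windows, so they are not directly comparable. These matches describe letters and not bound sites.

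**Figure D1:**
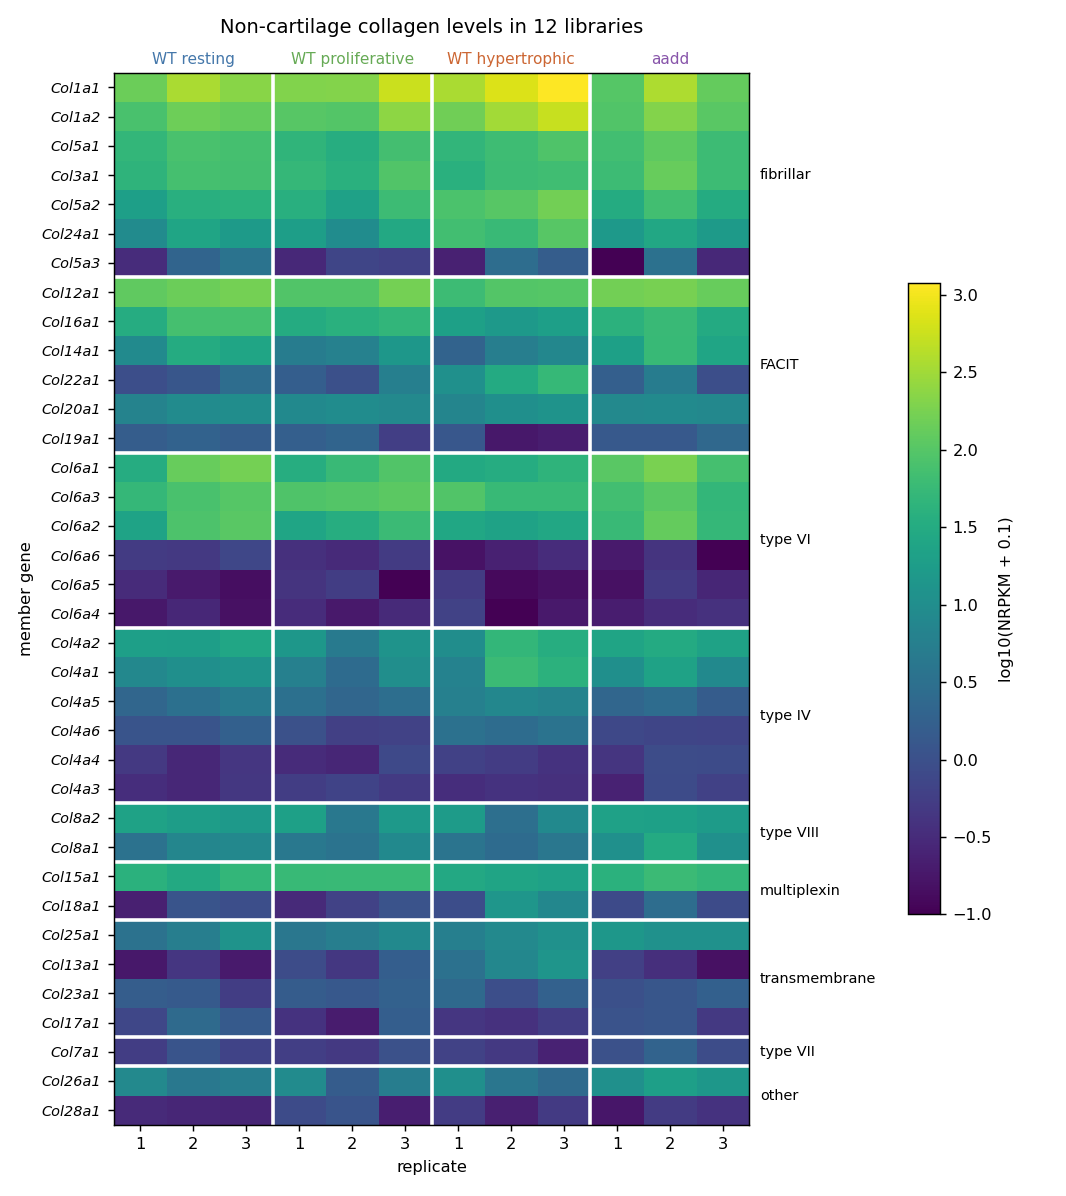
Levels of the 36 non-cartilage collagens (rows, grouped by class) in the 12 libraries (columns, replicates 1 to 3 of each group) as log10(NRPKM + 0.1). The type I chains are the brightest rows, up to 1187 NRPKM for *Col1a1* in hypertrophic replicate 3, and the pair *Col4a1* and *Col4a2* is bright in hypertrophic replicates 2 and 3 but not 1.

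The members summed to 736 to 1388 NRPKM in WT resting, 842 to 1687 in WT proliferative, 1107 to 2638 in WT hypertrophic and 923 to 1863 in *aadd*. As a share of all collagen NRPKM they made up 26.4% to 31.5% in WT resting, 18.3% to 32.3% in WT proliferative and 30.4% to 41.9% in *aadd*. In hypertrophic replicate 1 the share was 32.3%, at the top of the proliferative range, and in replicates 2 and 3 it was 70.7% and 71.0%. The cartilage collagens summed to 2323 NRPKM in replicate 1 and to 745 and 1078 in replicates 2 and 3, against 2280 to 3752 in WT proliferative. Fibrillar members held most of the members' signal, with a mean over the 12 libraries of 793 NRPKM, followed by type VI at 218 and the FACITs at 204. Type IV came to 44.6, the multiplexins to 45.2, type VIII to 23.6, the transmembrane members to 13.0, the pair *Col26a1* and *Col28a1* to 8.28 and the anchoring fibril gene *Col7a1* to 0.704.

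Across the 4 groups, 7 of the 22 members tested had an adjusted *P* under 0.05 in limma's moderated F test, against 13.8% of all genes tested. By limma they were *Col4a5* (adjusted *P* = 0.0146), *Col15a1* (0.0158), *Col22a1* (0.019), *Col24a1* (0.0194), *Col16a1* (0.0375), *Col14a1* (0.0415) and *Col8a1* (0.0457). *Col4a5* and *Col22a1* entered this test only through the hypertrophic libraries, in which they were high. With no filter their adjusted *P* was 0.0539 and 0.0568 in the same F test, and none of the 7 passed. Without hypertrophic replicate 1 the number was 11, beside 28.1% of all genes. Without hypertrophic replicate 2 or 3 it was 0, beside 7.16% and 5.74% of all genes. The number was 4 without resting replicate 2 or 3, proliferative replicate 2 or *aadd* replicate 1, beside 8.83% to 10.4% of all genes.

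The step from proliferative to hypertrophic cartilage asks how the collagens change as chondrocytes mature and the tissue is invaded. Of 22 members tested, 4 were higher and 2 lower in WT hypertrophic. *Col22a1*, *Col24a1*, *Col5a2* and *Col4a5* rose, and *Col15a1* and *Col16a1* fell. *Col22a1* and *Col4a5* passed the filter only through the hypertrophic libraries, in which they were high. These 6 are 27.3% of the members tested, beside 9.67% of all genes (5.32% higher and 4.34% lower), and the 6 libraries did not overlap for any of them, as for 24.2% of all genes. None of the members had an adjusted *P* under 0.05 in limma, and the share of all genes was 0.0%. The unadjusted *P* was up to 0.05 for the same 6 members. Without hypertrophic replicate 1, 10 members were called and 8 had an adjusted *P* under 0.05, where 18.4% and 17.4% of all genes did. Between hypertrophic and resting, 8 members passed the criteria, 6 higher and 2 lower, or 36.4% of those tested beside 13.0% of all genes (5.84% higher and 7.2% lower). The libraries of 10 members did not overlap, beside 32.0% of all genes, and 3 had an adjusted *P* under 0.05, where 6.36% of all genes did. Without hypertrophic replicate 1, 10 members passed the criteria and 9 had an adjusted *P* under 0.05, where 19.2% and 24.2% of all genes did. The number with an adjusted *P* under 0.05 was 0 without hypertrophic replicate 2 or 3 or without resting replicate 2 or 3, beside 1.43% to 1.77% of all genes. Without hypertrophic replicate 2 or resting replicate 3, 5 members were called, beside 11.1% and 11.4% of all genes. The proliferative and the resting comparison share the hypertrophic libraries.

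**Figure D2:**
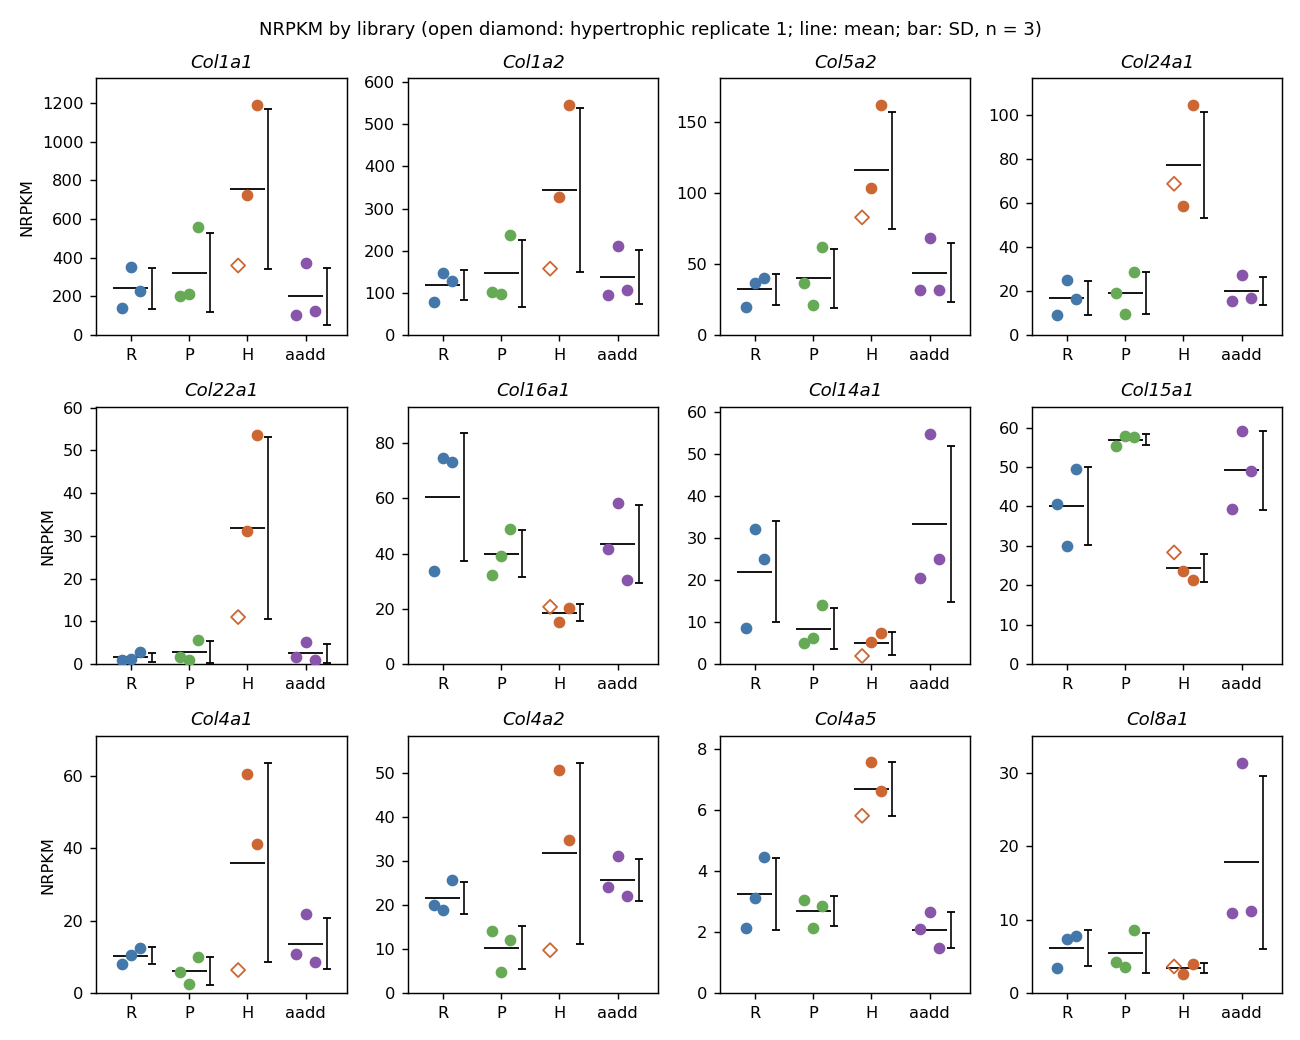
NRPKM (linear axes from 0) of 12 members in each library of WT resting (R), WT proliferative (P), WT hypertrophic (H) and *aadd*, with the mean (line) and SD (bar, n = 3). The open diamond is hypertrophic replicate 1, which lies with replicates 2 and 3 for *Col24a1*, *Col16a1*, *Col15a1* and *Col4a5* and far below them for *Col4a1* and *Col4a2*.

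Among the fibrillar members, *Col1a1* and *Col1a2* encode the chains of type I collagen. *Col1a1* (chr11:94936270-94951856, +) was at 142, 355 and 227 NRPKM in the 3 resting libraries, at 202, 211 and 557 in the proliferative, at 360, 723 and 1187 in the hypertrophic and at 102, 371 and 127 in *aadd*. *Col1a2* (chr6:4505697-4541543, +) was at 79.0, 148 and 129, at 102, 98.0 and 238, at 157, 327 and 546, and at 94.4, 211 and 106 NRPKM in the same order. For both genes hypertrophic replicate 1 lay just above the highest resting library and below proliferative replicate 3, while replicates 2 and 3 lay above all 9 other libraries. Against resting, the rise was 1.58 ± 0.52 (log2, SE) for *Col1a1* and 1.40 ± 0.49 for *Col1a2*, with adjusted *P* of 0.119 and 0.135 in limma. Leaving out resting replicate 1 or 3 or hypertrophic replicate 2 or 3 ended either call, with values of 1.18 to 1.59 for *Col1a1* and 0.98 to 1.49 for *Col1a2*, and the fit with no filter ended that of *Col1a2*. Without hypertrophic replicate 1 the values were 2.04 and 1.88, with adjusted *P* of 0.0259 and 0.0196. Against proliferative, the differences of 1.23 ± 0.57 and 1.19 ± 0.56 were not called, and without hypertrophic replicate 1 they were 1.69 and 1.66 and both passed the criteria. Type I made up 26.2% to 36.2% of the members' NRPKM in WT resting, 34.8% to 47.1% in WT proliferative, 46.7%, 58.5% and 65.7% in hypertrophic replicates 1, 2 and 3, and 20% to 31.2% in *aadd*.

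*Col5a2* and *Col24a1*, which encode minor fibrillar chains that assemble with type I fibrils, were high in all 3 hypertrophic libraries, replicate 1 included. *Col5a2* (chr1:45374331-45503282, -) was at 19.7, 36.6 and 40.3 NRPKM in resting, at 36.4, 21.1 and 62.2 in proliferative, at 82.9, 103 and 162 in hypertrophic and at 32, 68.3 and 31.8 in *aadd*. *Col24a1* (chr3:145292472-145552005, +) was at 9.27, 24.9 and 16.3, at 19.2, 9.46 and 28.5, at 68.6, 58.4 and 104, and at 15.7, 27.3 and 16.8 NRPKM. The hypertrophic libraries lay above the other 9 for both genes, and *Col24a1* in replicate 1 lay between replicates 2 and 3. *Col24a1* rose by 2.10 ± 0.45 against proliferative (adjusted *P* = 0.133 in limma) and by 2.26 ± 0.41 against resting (adjusted *P* = 0.0321). The rise of *Col5a2* was 1.62 ± 0.45 (adjusted *P* = 0.176 in limma) and 1.86 ± 0.37 (adjusted *P* = 0.0412). All 12 alternatives kept the 4 calls, including each library left out, although the adjusted *P* against resting ranged from 0.009 to 0.12 for *Col24a1* and from 0.018 to 0.13 for *Col5a2*. The annotation places the antisense gene 9530034A14Rik over *Col24a1*, and the use of strand is not given in the sources used here. Opposite-strand genes are also annotated over other members, among them *Col4a1*, *Col4a2*, *Col5a1*, *Col12a1*, *Col13a1*, *Col14a1*, *Col15a1* and *Col18a1*.

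*Col5a1*, *Col3a1* and *Col5a3* did not pass the criteria in any comparison. *Col5a1*, the partner chain of *Col5a2*, ranged from 35.0 to 115 NRPKM over the 12 libraries and differed by 0.40 ± 0.35 between hypertrophic and proliferative and by -0.04 ± 0.30 between hypertrophic and resting. *Col3a1*, the fibrillar collagen of soft connective tissue, ranged from 38.3 to 134 NRPKM and differed by -0.08 ± 0.38 and -0.20 ± 0.30. *Col5a3* was at 3.52 NRPKM or less and was not tested. Within libraries the chains therefore shifted against each other. The ratio of *Col5a1* to *Col5a2* was 2.53, 2.15 and 1.88 in resting, 1.27, 1.66 and 1.17 in proliferative, 0.58, 0.62 and 0.54 in hypertrophic, and 2.14, 1.69 and 1.94 in *aadd*, so the 3 WT groups did not overlap. *Col3a1* over *Col1a1* was 0.21 to 0.32, 0.17 to 0.26 and 0.056 to 0.11 in the WT groups and 0.36 to 0.60 in *aadd*. Hypertrophic replicate 1 lay with replicates 2 and 3 in the first ratio and was the highest of the 3 in the second.

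**Figure D3:**
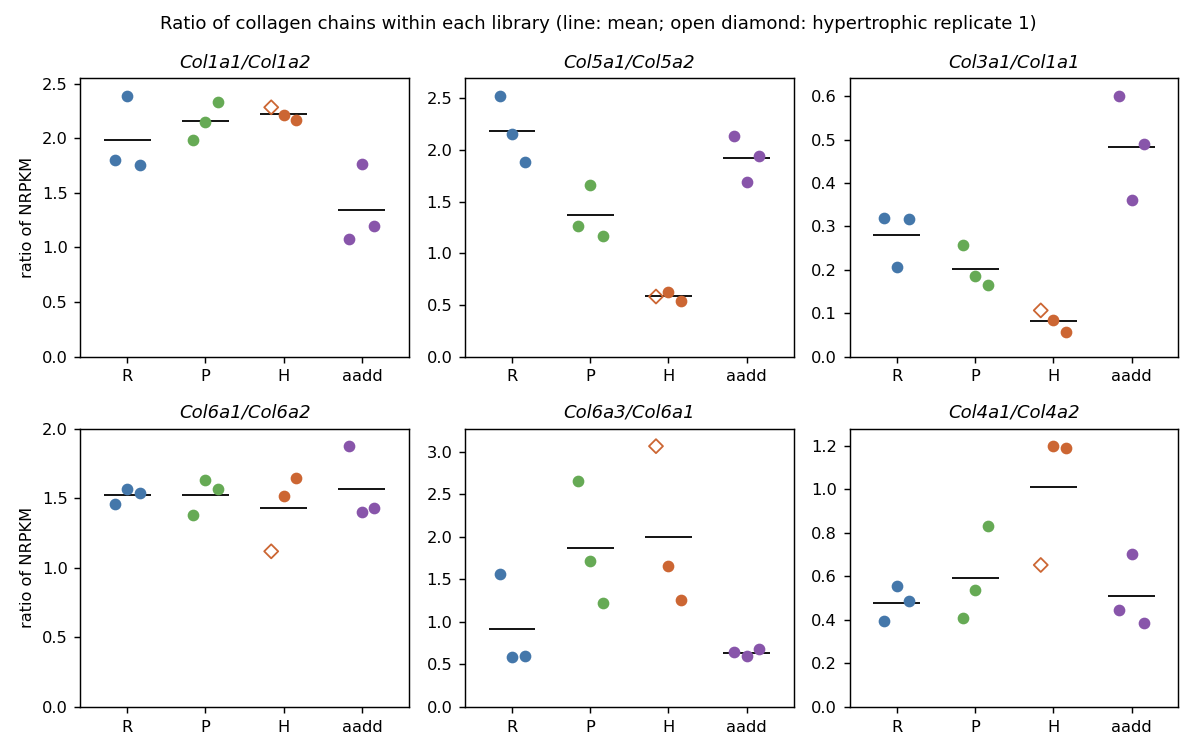
Ratio of the NRPKM of 2 collagen chains within each library of WT resting (R), WT proliferative (P), WT hypertrophic (H) and *aadd* (points, with the mean as a line and hypertrophic replicate 1 as an open diamond). *Col5a1* over *Col5a2* steps down from a mean of 2.19 to 1.37 and 0.582 through the WT compartments, *Col6a1* over *Col6a2* has group means of 1.43 to 1.57, and *Col4a1* over *Col4a2* is 1.20 and 1.19 in hypertrophic replicates 2 and 3 and 0.652 in replicate 1.

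The FACIT members went in opposite directions. *Col22a1* (chr15:71798476-72034227, -), whose product is found at tissue junctions such as that of muscle and tendon, had the largest fold change of the 22 members tested in both hypertrophic comparisons. It was at 0.859, 1.13 and 2.74 NRPKM in resting, at 1.57, 0.896 and 5.68 in proliferative, at 11.0, 31.1 and 53.7 in hypertrophic and at 1.63, 5.04 and 0.845 in *aadd*. Hypertrophic replicate 1 was the lowest of its group and still above the other 9 libraries. The rise was 3.64 ± 0.82 against proliferative (adjusted *P* = 0.148 in limma) and 4.14 ± 0.67 against resting (adjusted *P* = 0.0238), and both calls held in all 12 alternatives, with adjusted *P* of 0.025 to 0.47 and 0.0038 to 0.11. Outside the hypertrophic group *Col22a1* reached 5 NRPKM in 2 libraries, so it entered the test only through the group in which it was high. The annotation lists the antisense gene Gm16308 over *Col22a1*.

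*Col16a1* and *Col14a1* fell, and *Col12a1* was lower by less than 2-fold. *Col16a1* (chr4:130047840-130099277, +), a FACIT that is also made in cartilage, was at 33.6, 74.5 and 73.3 NRPKM in resting, at 32.1, 39.1 and 48.8 in proliferative, at 20.7, 15.1 and 20.2 in hypertrophic and at 41.5, 58.3 and 30.5 in *aadd*. All 3 hypertrophic libraries lay below the other 9, with replicate 1 beside replicates 2 and 3. It fell by 1.09 ± 0.24 on the log2 scale against proliferative (adjusted *P* = 0.137 in limma) and by 1.62 ± 0.35 against resting (adjusted *P* = 0.0504). Without proliferative replicate 3 or hypertrophic replicate 2 the first difference was -0.94 in both cases and under 2-fold, and the second was called in all 12 alternatives.

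*Col14a1* (chr15:55307750-55520803, +), a FACIT of tendon and skin, was at 8.65, 32.2 and 25.1 NRPKM in resting, at 4.98, 6.13 and 14.0 in proliferative, at 1.91, 5.36 and 7.48 in hypertrophic and at 20.5, 54.6 and 25.0 in *aadd*. The hypertrophic libraries lay below all resting ones, and the proliferative libraries overlapped both. It fell by 2.14 ± 0.66 between resting and hypertrophic (adjusted *P* = 0.106 in limma), a call that ended without resting replicate 2 (-1.77) or 3 (-1.95). *Col12a1*, the FACIT with the highest level, was at 119, 145 and 168, at 93.4, 93.9 and 164, at 61.9, 95.2 and 101, and at 162, 175 and 134 NRPKM in the same order, and differed by -0.76 ± 0.26 between hypertrophic and resting, with no overlap. *Col20a1* stayed between 6.47 and 12.3 NRPKM in the 12 libraries, and *Col19a1* was at 2.29 or less. The sum of 5 tendon markers was 24.7 to 49.4 NRPKM in resting, 15.54 to 26.5 in proliferative, 9.02 to 12.3 in hypertrophic and 38.1 to 52.5 in *aadd*, the order of the group means of *Col14a1*. The 5 genes did not all follow it. *Mkx* was at 12.1 to 17.4 in resting, 10.1 to 12.2 in proliferative, 2.70 to 7.42 in hypertrophic and 25.5 to 33.6 in *aadd*. *Thbs4* was at 0.406 to 20.8 in resting and 1.56 to 8.46 in *aadd*, and *Kera* at 1.18 to 8.38 and 0.553 to 6.30. *Tnmd* was at 0 to 2.83 in resting and 1.98 to 3.01 in hypertrophic. No tendon marker was at 0 in all libraries of a group. Their part in the result was not tested.

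Type IV collagen split into 2 pairs. *Col4a1* and *Col4a2*, the chains of nearly all basement membranes, lie head to head on chromosome 8 (chr8:11198423-11312826, - and chr8:11312829-11449287, +), with their start sites inside the promoter windows printed above. *Col4a1* was at 7.88, 10.5 and 12.5 NRPKM in resting, at 5.76, 2.51 and 10.1 in proliferative, at 6.32, 60.5 and 41.2 in hypertrophic and at 10.7, 21.8 and 8.43 in *aadd*. *Col4a2* was at 19.9, 18.9 and 25.7, at 14.1, 4.68 and 12.1, at 9.70, 50.5 and 34.7, and at 24.0, 31.0 and 21.9 NRPKM. In both genes hypertrophic replicate 1 lay within the proliferative range and replicates 2 and 3 lay above all 9 other libraries. With all 3 hypertrophic libraries the differences from proliferative were 2.23 ± 0.93 and 1.46 ± 0.71, and neither was called. Without replicate 1 they were 3.22 and 2.16, with adjusted *P* of 0.025 and 0.0475 in limma. The endothelial markers, 10 of 10 of which were above 0 in all 3 hypertrophic libraries, summed to 21.7 NRPKM in replicate 1 and 304 and 212 in replicates 2 and 3, and *Cldn5* was at 0 in all 3 proliferative libraries. Their part in the result was not tested. In such mixed tissue samples, more cells of a type and more RNA per cell cannot be told apart.

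*Col4a5* and *Col4a6*, chains of more restricted basement membranes, also lie head to head, on the X chromosome (chrX:141475419-141689235, + and chrX:141165403-141474076, -), and were higher in all 3 hypertrophic libraries. *Col4a5* was at 2.13, 3.12 and 4.47 NRPKM in resting, at 3.06, 2.12 and 2.85 in proliferative, at 5.82, 7.60 and 6.65 in hypertrophic and at 2.09, 2.65 and 1.46 in *aadd*. *Col4a6*, which did not pass the filter, was at 1.04, 1.06 and 1.68, at 0.928, 0.491 and 0.547, at 3.18, 2.61 and 3.47, and at 0.655, 0.619 and 0.591 NRPKM, or an estimated 6.3 to 68.9 reads. No hypertrophic library of either gene overlapped any other library. *Col4a5* rose by 1.30 ± 0.21 against proliferative (adjusted *P* = 0.116 in limma, called in all 12 alternatives) and by 1.08 ± 0.29 against resting (adjusted *P* = 0.0818), although it reached 5 NRPKM in the hypertrophic group alone and so entered the test through the group in which it was high. Without resting replicate 1 or hypertrophic replicate 2 the second value was 0.81 or 0.98 and under 2-fold, as it was with a pseudocount of 1 (0.89). In the fit without the filter, *Col4a6* rose by 2.11 ± 0.27 against proliferative and by 1.25 ± 0.23 against resting, with adjusted *P* of 0.129 and 0.0909. *Col4a3* and *Col4a4*, the remaining type IV chains, were at 0.779 NRPKM or less in every library. *Col4a1*, *Col4a6*, *Col13a1* and *Col18a1* are given by library after their values were seen.

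**Figure D4:**
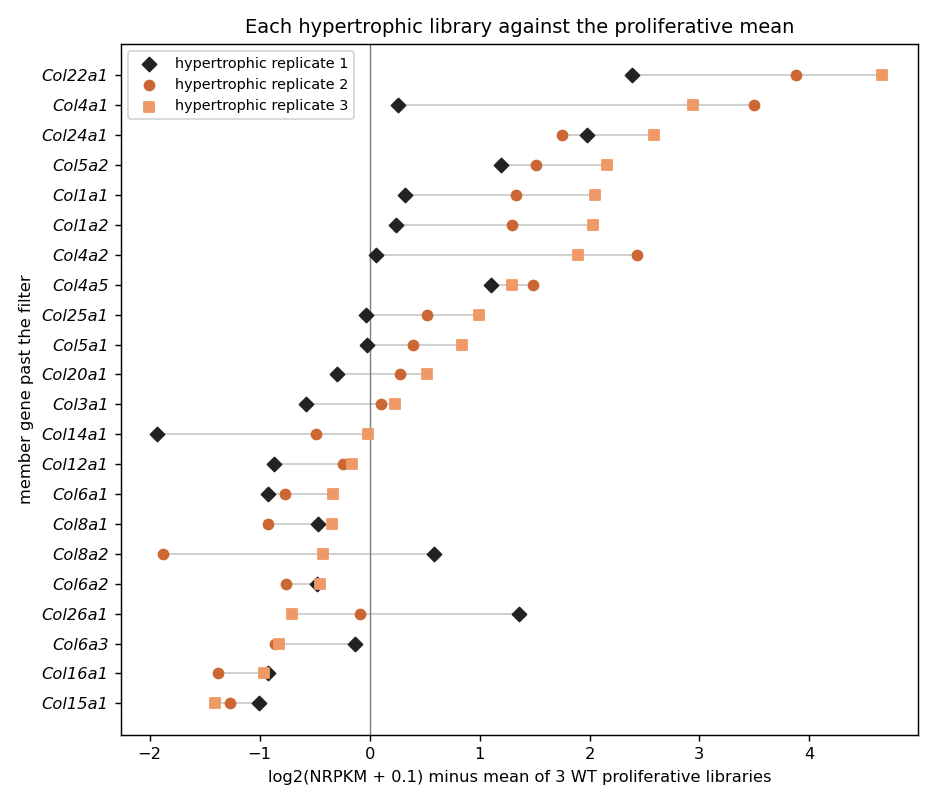
Log2(NRPKM + 0.1) of the 22 members tested in hypertrophic replicates 1 (black diamond), 2 (circle) and 3 (square), minus the mean of the 3 WT proliferative libraries. Replicate 1 is at 0.06 to 0.32 for *Col1a1*, *Col1a2*, *Col4a1* and *Col4a2* and at 1.10 to 2.39 for *Col4a5*, *Col5a2*, *Col24a1* and *Col22a1*.

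Over the 22 members tested, hypertrophic replicate 1 was below both of its fellow replicates in 14, above both in 5 and between them in 3. It was the nearest of the 3 to the proliferative mean for 12 members. Its median absolute difference from that mean was 0.58 (log2), against 1.10 for replicate 2 and 0.90 for replicate 3.

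The 2 multiplexins differed from each other. *Col15a1* (chr4:47208012-47313165, +) was at 40.6, 29.9 and 49.6 NRPKM in resting, at 55.4, 57.8 and 57.6 in proliferative, at 28.3, 23.6 and 21.4 in hypertrophic and at 39.3, 59.2 and 49 in *aadd*. The 3 WT groups did not overlap, and hypertrophic replicate 1 lay with replicates 2 and 3. It fell by 1.23 ± 0.18 on the log2 scale between proliferative and hypertrophic (adjusted *P* = 0.11 in limma), a call that held in all 12 alternatives with adjusted *P* of 0.01 to 0.45. Differences of 0.54 ± 0.22 between proliferative and resting and of -0.69 ± 0.24 between hypertrophic and resting were under 2-fold. *Col18a1*, which carries the endostatin sequence and is a basement membrane component, was at 0.124, 1.05 and 0.838, at 0.207, 0.528 and 0.994, at 0.835, 13.6 and 7.69, and at 0.736, 2.76 and 0.755 NRPKM. Like *Col4a1*, it was within the proliferative range in hypertrophic replicate 1 and above all 9 other libraries in replicates 2 and 3. It did not pass the filter, and without the filter its difference of 2.96 ± 1.17 from proliferative was not called (adjusted *P* = 0.39 in limma).

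Type VI collagen forms the filaments of the chondrocyte's pericellular matrix. *Col6a1* (chr10:76708792-76726044, -), its highest gene by mean, was at 33.2, 134 and 168 NRPKM in resting, at 34.2, 56.9 and 92.8 in proliferative, at 29.8, 33.2 and 44.8 in hypertrophic and at 107, 182 and 73.9 in *aadd*. Resting replicate 1 lay far below the other resting libraries, as it did for *Col6a2* at 22.8 against 85.8 and 109 NRPKM. Between hypertrophic and resting the differences of -1.36 ± 0.61 for *Col6a1* and -1.25 ± 0.58 for *Col6a2* were not called (adjusted *P* = 0.223 and 0.233 in limma). Without resting replicate 1 they were -2.08 and -1.94 and passed, with adjusted *P* of 0.025 and 0.02. *Col6a3* ranged from 50 to 113 NRPKM and had its highest mean in the proliferative libraries, at 90.8, 97.9 and 113, without passing the criteria. *Col6a4*, *Col6a5* and *Col6a6* were at 0.628 NRPKM or less in every library. The ratio of *Col6a1* to *Col6a2* stayed between 1.12 and 1.88 over the 12 libraries, while *Col6a3* over *Col6a1* ranged from 0.59 to 3.07.

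Of the transmembrane members, *Col13a1* was at 0.085, 0.339 and 0.098 NRPKM in resting, at 0.772, 0.360 and 1.53 in proliferative, at 3.20, 7.68 and 13.4 in hypertrophic and at 0.500, 0.249 and 0.0544 in *aadd*. In NRPKM the 3 WT groups did not overlap. In estimated reads, resting (0.8 to 2.6) and proliferative (2.2 to 9.3) overlapped, and hypertrophic had 23.9 to 127.3. It did not pass the filter, and in the fit without it the rise was 3.01 ± 0.72 against proliferative (adjusted *P* = 0.277 in limma) and 4.80 ± 0.65 against resting (adjusted *P* = 0.0558). *Col25a1*, the transmembrane member with the highest mean, was at 3.29, 5.51 and 12.2 NRPKM in resting, at 4.09, 5.46 and 8.40 in proliferative, at 5.61, 8.25 and 11.5 in hypertrophic and at 14.4, 11.6 and 11.4 in *aadd*. *Col17a1* and *Col23a1* did not exceed 2.42 and 2.36 NRPKM. *Col17a1*, a collagen of the epidermal hemidesmosome, was highest in resting replicate 2, where 7 epidermal markers summed to 174 NRPKM, against 4.16 to 24.2 in the other 11 libraries. It was lowest, at 0.106 NRPKM, in proliferative replicate 2, where that sum was 24.2. The part of epidermal cells in its level was not tested. *Col7a1*, the anchoring fibril collagen of skin, was at 0.457, 1.06 and 0.553, at 0.465, 0.368 and 0.910, at 0.543, 0.371 and 0.145, and at 0.924, 1.88 and 0.785 NRPKM, and *Col28a1* was at 1.03 or less.

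Osteoblast markers, like the type I, *Col5a2*, *Col24a1* and *Col22a1* transcripts, had their highest levels in the hypertrophic libraries. The 10 genes, among them *Ibsp*, *Spp1* and *Sp7*, summed to 60.0 to 81.3 NRPKM in resting, 289 to 675 in proliferative, 1404, 2750 and 3271 in hypertrophic replicates 1, 2 and 3, and 44.6 to 80.9 in *aadd*. The list split in replicate 1. In replicates 1, 2 and 3 *Ibsp* was at 718, 968 and 1331 NRPKM (82.2 to 278 in proliferative) and *Sp7* at 126, 112 and 154 (61.7 to 93.2). *Spp1* was at 24.1, 1083 and 979 (10.7 to 18.3) and *Dmp1* at 12.2, 134 and 171 (3.56 to 6.33). Of the 8 tested, 6 were higher in hypertrophic than in proliferative and 8 than in resting, the latter with 7 at an adjusted *P* under 0.05 in limma. *Bglap2* was at 0 in every resting, proliferative and *aadd* library and in hypertrophic replicate 1. The 10 perichondrial and fibroblast genes, none at 0 in all libraries of a group, summed to 314 to 381 NRPKM in resting and 332 to 541 in proliferative. They summed to 400, 514 and 606 in hypertrophic replicates 1, 2 and 3 and to 313 to 502 in *aadd*. These genes did not move together. In hypertrophic replicates 1, 2 and 3 *Dcn* was at 4.55, 58.2 and 85.5 NRPKM, *Pdgfrb* at 6.91, 63.9 and 54.4 and *Thy1* at 9.13, 77.5 and 31.7. *Lum* was at 240, 115 and 199 and *Prrx1* at 61.9, 39.1 and 41.9. In resting replicates 1, 2 and 3 *Dcn* was at 10.7, 67.7 and 60.7. The part of these cells in the results was not tested.

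Between proliferative and resting, 1 of 22 members tested passed the criteria, *Col4a2*, where 5.53% of all genes did and 2.97% did so by a fall. It fell by 1.19 ± 0.42 on the log2 scale with no overlap between the 6 libraries (adjusted *P* = 0.249 in limma). The libraries of 2 members did not overlap, *Col4a2* and *Col15a1*, beside 24.0% of all genes. None had an adjusted *P* under 0.05, beside 0.622% of all genes, and 2 had an unadjusted *P* up to 0.05. Leaving out resting replicate 1 or 3 or proliferative replicate 2 ended the *Col4a2* call, with differences of -1.24, -1.05 and -0.70, and so did the fit of all 12 libraries and the fit with no filter. With the replicate number as a block, 2 members were called, *Col4a2* (adjusted *P* = 0.185 in limma) and *Col14a1* (-1.33, adjusted *P* = 0.192). The number of members called was 0 without resting replicate 3 or proliferative replicate 2 and 3 without resting replicate 1 or proliferative replicate 3.

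**Figure D5:**
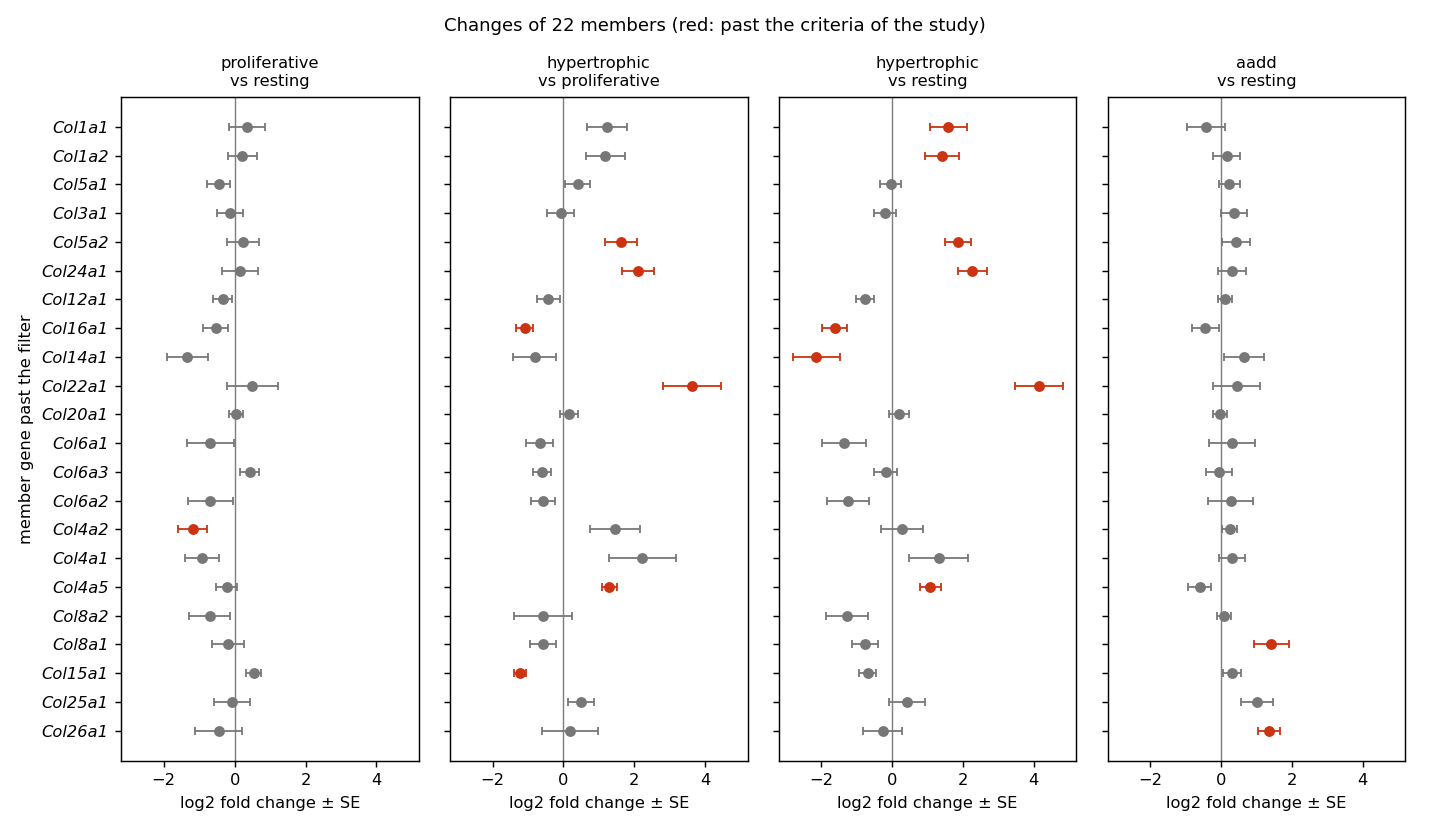
Log2 fold change ± SE (limma) of the 22 members tested in 4 comparisons, ordered by class. Red points passed the criteria of the study, 1, 6, 8 and 2 members from left to right, and *Col22a1* lies farthest to the right, at 3.64 and 4.14 in the hypertrophic comparisons.

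The comparison of *aadd* with WT resting sets mutant chondrocytes that stay undifferentiated beside the WT compartment that the study found most like them. Mutant cells were captured as a whole population and WT cells from the resting compartment alone. Genotype and the cells captured therefore cannot be told apart. Of 22 members tested, 2 were higher, *Col26a1* and *Col8a1*, and 0 lower, or 9.09% of the members beside 6.56% of all genes (3.78% higher and 2.78% lower). They were also the 2 members whose libraries did not overlap, beside 15.4% of all genes. None had an adjusted *P* under 0.05 in limma, beside 0.119% of all genes, and the 2 called were those with an unadjusted *P* up to 0.05. *Col26a1* (chr5:136741764-136883107, -), a small collagen first known from testis and ovary, was at 8.07, 4.20 and 5.28 NRPKM in resting, at 9.12, 1.41 and 5.19 in proliferative, at 10.6, 3.84 and 2.47 in hypertrophic and at 11.1, 19.8 and 14.1 in *aadd*. The *aadd* libraries lay above all 9 WT libraries. The rise over resting was 1.36 ± 0.31 (adjusted *P* = 0.248 in limma), kept with each library left out and lost in the fit of all 12 libraries, with adjusted *P* of 0.18 to 0.73 over the alternatives.

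*Col8a1* (chr16:57624256-57754737, -), a short-chain network collagen of vessel walls and of the corneal Descemet's membrane, was at 3.35, 7.31 and 7.82 NRPKM in resting, at 4.21, 3.52 and 8.57 in proliferative, at 3.61, 2.60 and 3.96 in hypertrophic and at 10.9, 31.4 and 11.2 in *aadd*. Here too the 3 *aadd* libraries exceeded the 9 of WT, and replicate 2 was far above the other *aadd* replicates. The rise over resting was 1.42 ± 0.50 (adjusted *P* = 0.431 in limma), and without *aadd* replicate 2 or resting replicate 1 it was 0.92 or 1.04 and not called. The fit with no filter also ended the call (unadjusted *P* = 0.0584 in limma). Its partner *Col8a2* was at 21.9, 18.6 and 15.6 NRPKM in resting, at 21.0, 4.22 and 16.1 in proliferative, at 17, 3.0 and 8.38 in hypertrophic and at 21.2, 20.7 and 17.4 in *aadd*, a difference of 0.09 ± 0.19 between *aadd* and resting. In *aadd* replicates 1, 2 and 3 the endothelial markers summed to 10.0, 37.3 and 5.15 NRPKM, the macrophage markers to 16, 45.5 and 13 and 10 skeletal muscle markers to 43.8, 58.0 and 17.5, against 5.0 to 12.8, 14.6 to 20.5 and 6.60 to 9.38 in resting. The muscle sum was not high in *aadd* alone. It was highest in WT proliferative replicate 3, at 130 NRPKM, against 16.3 and 8.13 in proliferative replicates 1 and 2. In WT hypertrophic it reached 43.8 NRPKM. The part of these 3 marker lists in the result was not tested.

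The type I chains were nearer to equal in *aadd* replicates 1 and 3 than in any WT library. The ratio of *Col1a1* to *Col1a2* was 1.08, 1.76 and 1.20 in *aadd* and 1.76 to 2.39 in the 9 WT libraries, with *aadd* replicate 2 just inside the WT range. Neither chain was called between *aadd* and resting, at -0.42 ± 0.54 for *Col1a1* and 0.16 ± 0.37 for *Col1a2*. Of the members that changed in hypertrophic cartilage, *Col22a1*, *Col24a1* and *Col5a2* differed from resting by 0.44 ± 0.67, 0.31 ± 0.39 and 0.42 ± 0.40 in *aadd*, *Col4a5* by -0.60 ± 0.32, *Col16a1* by -0.44 ± 0.38 and *Col15a1* by 0.31 ± 0.25, and none of these was called.

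Collagen chains are hydroxylated and folded in the endoplasmic reticulum, trimmed by proteases outside the cell, crosslinked by lysyl oxidases and bound by receptors. Of 42 such genes listed, 37 were tested. Between proliferative and resting, 5 rose and 0 fell, or 13.5% beside 5.53% of all genes, and 2 had an adjusted *P* under 0.05 in limma. The largest rises were those of the lysyl oxidase *Loxl4*, by 2.80 ± 0.21 (adjusted *P* = 0.00867 in limma), and of *Pcolce2*, an enhancer of procollagen trimming, by 1.74 ± 0.22 (adjusted *P* = 0.0351). Between hypertrophic and proliferative, 5 rose and 3 fell, or 21.6% beside 9.67% of all genes, and none passed adjustment. Without hypertrophic replicate 1, 6 rose and 8 fell, 11 of the 37 with an adjusted *P* under 0.05 in limma. In that fit 18.4% of all genes were called and 17.4% passed adjustment. *Itga2*, a chain of a collagen-binding integrin, rose most, by 4.75 ± 0.68, and was at 10.6, 55.1 and 51.3 NRPKM in hypertrophic replicates 1, 2 and 3 and at 0.684 to 1.40 in proliferative. It reached 5 NRPKM in the hypertrophic group alone and so entered the test through it. *Creb3l1*, a transcription factor that drives type I collagen in bone, rose by 1.79 ± 0.41, at 159, 160 and 193 NRPKM against 25.6 to 75.6, with replicate 1 close to replicate 2. The prolyl hydroxylase chain *P4ha3* and the lysyl oxidase *Loxl3* fell most, by 2.03 ± 0.57 and 1.64 ± 0.40. *P4ha3* was at 47.9, 11.1 and 12.8 NRPKM in hypertrophic replicates 1, 2 and 3 against 62.8 to 88.4 in proliferative, and *Loxl3* at 51.0, 20.5 and 20.6 against 76.3 to 106. Replicate 1 lay between the proliferative libraries and replicates 2 and 3 for both genes, and without it the differences were -2.69 and -2.07 and still called. Between hypertrophic and resting, 6 rose and 6 fell, or 32.4% beside 13.0% of all genes, and 7 of the 37 had an adjusted *P* under 0.05 in limma. Leaving out hypertrophic replicate 1, 5 rose and 10 fell, and 17 had an adjusted *P* under 0.05 in limma, where 19.2% of all genes were called and 24.2% passed adjustment. *Itga2* and *Loxl4* rose most, by 4.23 ± 0.66 and 3.94 ± 0.26, and *P4ha3* and *Loxl3* fell most, by 2.40 ± 0.55 and 1.79 ± 0.41. Without replicate 1 these differences were 5.0, 3.83, -3.06 and -2.23, all called. In *aadd*, 3 of the 37 were called, or 8.11% beside 6.56% of all genes. *Lox* rose by 1.40 ± 0.33 over resting, *Tll1*, a procollagen protease, rose by 0.67 ± 0.19 and *Pcolce* fell by 1.01 ± 0.39, none with an adjusted *P* under 0.05. *Lox*, the main crosslinking enzyme of fibrillar collagen, was at 13.1 to 17.7 NRPKM in resting, 27.7 to 91.3 in proliferative, 105, 148 and 203 in hypertrophic and 24.7 to 60.3 in *aadd*.

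Of the 8 cartilage collagens set aside at the outset, 7 fell between proliferative and hypertrophic and *Col10a1*, the marker of hypertrophy, rose, with a median difference of -1.69 beside 0.18 for the members tested and 0.04 for all genes tested. The difference between the sets was not tested. Between hypertrophic and resting, 6 fell and 1 rose. Leaving out hypertrophic replicate 1, 7 fell and 1 rose in each comparison, with medians of -2.31 and -2.08. In these fits 18.4% and 19.2% of all genes were called.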

How the data were processed

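RNA-Seq was done on 12 libraries made from 20 ng of total RNA each, amplified with the NuGEN system, tagmented with Nextera and sequenced on an Illumina HiSeq. Reads were aligned by the authors to mm10 (their processing notes name TopHat), and those of poor quality, with several alignments or duplicated were dropped. The authors deposited RPKM values normalized further between libraries in GeneSpring, on a linear scale with zeros kept. Strand use and the scaling between libraries are not given in the sources used here. No counts were in the file, so depth was estimated from the commonest value of 1574 single-exon genes (sensory receptors and keratin-associated proteins), which was taken to be 1 read, and reads per member used GENCODE exon lengths. These estimates cover counting error only.

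Analysis used limma 3.58.1 in R 4.3.3 on log2(NRPKM + 0.1) for all 10936 genes past the filter, on the 6 libraries of each pair of groups without covariates, with tables and plots made in Python 3.11.15 (pandas 2.3.3, numpy 2.4.6, matplotlib 3.10.9). The criteria followed the study. The Audic-Claverie test it names was not run. An exact two-sided permutation test of 3 against 3 cannot give a *P* below 0.1. The fit was tested on simulated data.

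The members, lists and tests were chosen with earlier results of these data known. Values by library are given for each member called in any pairwise comparison and for the highest member of each class. In the pathway lists, the 2 largest rises and 2 largest falls called per comparison are named, and *Creb3l1* and the levels of *Lox* were added after their values were seen.

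Resting and proliferative libraries of the same number shared deviations from the means of their groups (*r* across genes of 0.281, 0.179 and 0.198), so by the rule used the numbers pair them, although neither the labels nor the study say what a number shares. In the other pairs of groups *r* was -0.097 to 0.28 and did not exceed 0.1 throughout. Alternatives were a pseudocount of 1, no filter, median-of-ratios or quantile scaling, the replicate block, a single fit of all 12 libraries and each library left out. Neither rescaling moved the median of all genes by more than 0.083 (log2).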

Additional observations from a re-analysis of the deposited data

How the results depend on the processing

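Of 204 values of the 17 named member changes under alternatives, 179 kept the criteria, 25 did not (19 of them with 1 library left out) and 0 reversed. Members past the criteria between proliferative and resting numbered 1, 2 with a pseudocount of 1, 0 with all 12 libraries in one fit, 2 with the replicate block, and 0 (without resting replicate 3) to 3 (without resting replicate 1) with 1 library left out. Between hypertrophic and proliferative they numbered 6, and 5 to 10 with 1 library left out, the highest without hypertrophic replicate 1. Of all genes, 6.02% to 18.4% passed these criteria with 1 library left out, also highest without hypertrophic replicate 1. Members with an adjusted *P* under 0.05 there numbered 0 in limma (6 by unadjusted *P*), 4 with all 12 libraries and 0 to 8 with 1 left out (0% to 17.4% of all genes). Between hypertrophic and resting, 8 members passed the criteria (12 with no filter, 5 to 10 with 1 library left out) and 3 the adjusted threshold (0 with no filter, 6 with all 12 libraries, 0 to 9 with 1 left out). With 1 library left out, 10.9% to 19.2% of all genes passed the criteria there and 1.43% to 24.2% the adjusted threshold. In the F test 7 passed, 4 with the median of ratios and 0 to 11 with 1 library left out (5.74% to 28.1% of all genes). With no filter none of the 7 passed, and 2 others did (*Col13a1* and *Col4a6*). The causes were not tested. The fit with no filter adjusts over 23070 genes, and in it the unadjusted *P* of all 7 in limma's F test was higher too. It was 0.00225 against 0.000851 for *Col4a5* and 0.00252 against 0.00138 for *Col22a1*. For *aadd*, 2 to 3 members passed under every alternative and 0 passed adjustment. In the other pairs of groups, whose numbers do not pair the libraries, the replicate block gave 8 members against 6 (hypertrophic and proliferative), 9 against 8 (hypertrophic and resting) and 2 against 2 (*aadd*). The filter left 14 members untested, of which 5 stayed under 1 NRPKM in every library. The counts of pathway genes and cartilage collagens without hypertrophic replicate 1 were added after the data were seen.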
